A study of Mus musculus with 4 samples.

Results

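The activator protein 1 (AP-1) genes described here are Fos, Fosb, Fosl1, Fosl2, Jun, Junb, Jund, Atf3 and Maff, 9 of the 12384 genes measured. They were taken by gene symbol, with no cut on a measured value, but the list was chosen with earlier results of these data known. They were represented by 11 probe sets, since Jun and Fosl1 had 2 each. Expression was measured on 4 Affymetrix arrays of RNA from hair follicle stem cells. The cells were sorted by YFP, integrin α6 and CD34, the last a marker of the resting follicle's bulge. They came from back skin of female CD1/C57BL/6 mice at about postnatal day 60. The groups were wild type (WT) and Tbx1 conditional knockout (cKO), in which the gene of a T-box transcription factor is targeted, with 2 arrays each, 1 in set 1 and 1 in set 2. Wax depilation of the mid-dorsal skin 48 h before harvest is given for all samples, while the sample descriptions name the set 1 cells quiescent and the set 2 cells activated. This difference is not settled by the labels, so the sets go by number. The sources used here do not give the Cre driver of the knockout, the source of YFP or whether animals were pooled.

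AP-1 is a dimer of proteins with a basic region and a leucine zipper, usually 1 from the Fos family and 1 from the Jun family. Many AP-1 genes are immediate early genes, whose transcripts appear within minutes of growth factor, wound or stress signals. In skin, AP-1 acts in keratinocyte proliferation, differentiation and wound repair, and the same genes respond to tissue dissociation before a cell sort.

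Promoter sequences of members with a recognition sequence for this protein class are shown because AP-1 and ATF proteins are known to act on the promoters of their own genes. RefSeq windows (GRCm38.p6) were found for 8 of the 9 members, 10 windows in all, and the 250 bases before each listed start were searched on both strands. The letters searched were TGACGT (the core of the cyclic AMP response element), TGACGTCA (the full element, which contains that core on both strands), TGAGTCA (the AP-1 element), TGACATCA (its longer variant in the Jun promoter) and the CArG box, which binds serum response factor. Capitals mark matches, and each sequence reads 5′ to 3′ on the gene's strand.
Fos, chr12:85473640-85473889, plus strand: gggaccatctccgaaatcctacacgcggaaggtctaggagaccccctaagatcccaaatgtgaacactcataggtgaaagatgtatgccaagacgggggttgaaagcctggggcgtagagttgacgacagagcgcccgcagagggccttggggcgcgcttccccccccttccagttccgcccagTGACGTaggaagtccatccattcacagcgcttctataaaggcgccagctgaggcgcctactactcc
Jun, chr4:95052223-95052472, minus strand: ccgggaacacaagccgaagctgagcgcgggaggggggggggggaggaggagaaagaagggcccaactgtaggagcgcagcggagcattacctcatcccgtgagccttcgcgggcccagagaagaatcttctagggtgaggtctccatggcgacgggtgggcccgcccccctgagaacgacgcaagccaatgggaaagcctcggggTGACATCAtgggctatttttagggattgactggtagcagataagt
Atf3, chr1:191183334-191183583, minus strand: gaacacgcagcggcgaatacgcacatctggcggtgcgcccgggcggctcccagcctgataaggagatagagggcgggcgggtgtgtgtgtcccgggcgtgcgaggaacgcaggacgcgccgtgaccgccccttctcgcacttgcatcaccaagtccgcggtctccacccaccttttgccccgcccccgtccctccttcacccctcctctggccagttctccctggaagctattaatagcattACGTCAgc
Maff, second listed start, chr15:79347484-79347505, plus strand, the 22 bases around the match: ggggcggTGACGTCActgcatg
TGACGT was matched in windows of 3 members, at 66 to 61 bases before the start of Fos, at 8 to 3 bases before that of Atf3 (on the opposite strand, so that the printed letters are ACGTCA) and within the full element of Maff at 29 to 22 bases. Of all 32851 windows, 6.47% held TGACGT and 1.55% the full element. TGACATCA was matched in Jun at 45 to 38 bases and at another listed start of Maff at the same distance, against 2.93% of all windows. No window of a member held TGAGTCA (4.46% of all) or a CArG box (1.47%) within these 250 bases. Fosb, Fosl2, Junb and Jund had no match to any of these letters.

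Every AP-1 gene lay above the dim limit on all 4 arrays, set at a log2 value of 5.40. No member differed between cKO and WT, or between set 2 and set 1, by limma's test over 8031 genes at an adjusted p under 0.05. By their main (brightest) probe sets, all 9 members had their lowest value on the WT set 2 array, where 39.7% of all genes tested had theirs, and 7 had their highest on the cKO set 2 array, against 19.5% of all genes. Maff and Fosb varied most, with ranges of 1.73 and 1.28 on the log2 scale over the arrays, and Fos, with a range of 0.24, and Fosl2, with 0.23, varied least. The count on the WT set 2 array was taken after the values had been seen. Values below are log2 intensities unless a linear scale is named, and levels of different probe sets are not compared with each other.

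The WT set 2 array stood apart from the others in several measures. The nuclear RNA Xist had a value of 13.37 on it (11.96 to 12.30 elsewhere), and Malat1, another one, 12.35 (9.80 to 10.56 elsewhere). Markers of suprabasal and infundibular cells, 7 of 9 listed on the array, summed to 8891 on the linear scale there and to 24235 to 29020 on the other arrays. All 11 genes listed as bulge markers, among them Itga6, Krt5, Krt14 and the targeted gene Tbx1, lay above the dim limit on all arrays. The 11 endothelial markers had sums of 2548 and 2723 in WT and 279.0 and 279.9 in cKO. Only 6 of them were tested, and Plvap, Selp, Aqp1 and Fabp4, which limma called lower in cKO, lay below the dim limit on both cKO arrays and entered the test through their WT values. Leukocyte markers summed to 260 to 346 over 10 genes, and Ptprc and Itgam lay below the dim limit on every array. Fibroblast markers summed to 881 to 1076 over 9 genes, a sum that joins opposite differences. On the log2 scale Vim read 8.93 and 8.80 in WT and 7.24 and 6.66 in cKO. Col6a1 read 7.97 and 8.03 in WT and 9.26 and 8.95 in cKO, and limma called neither. The 7 melanocyte markers measured summed to 311 and 397 in WT and to 430 and 442 in cKO. The cKO set 1 array had a 3′ minus 5′ difference of 2.95 for the added Dap control, against 1.74 to 1.82 elsewhere. Tbx1 itself read 10.53 and 10.37 in WT and 9.54 and 8.88 in cKO, so both cKO arrays were lower but still above the dim limit. The difference of -1.24 was not called by limma (adjusted p = 0.172 over 8031 genes and 0.310 among all probe sets). In bulk RNA, fewer cells of a type and less RNA per cell cannot be told apart. The part of the WT set 2 array, of other cell types and of RNA quality in the AP-1 values was not tested.

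**Figure D1:**
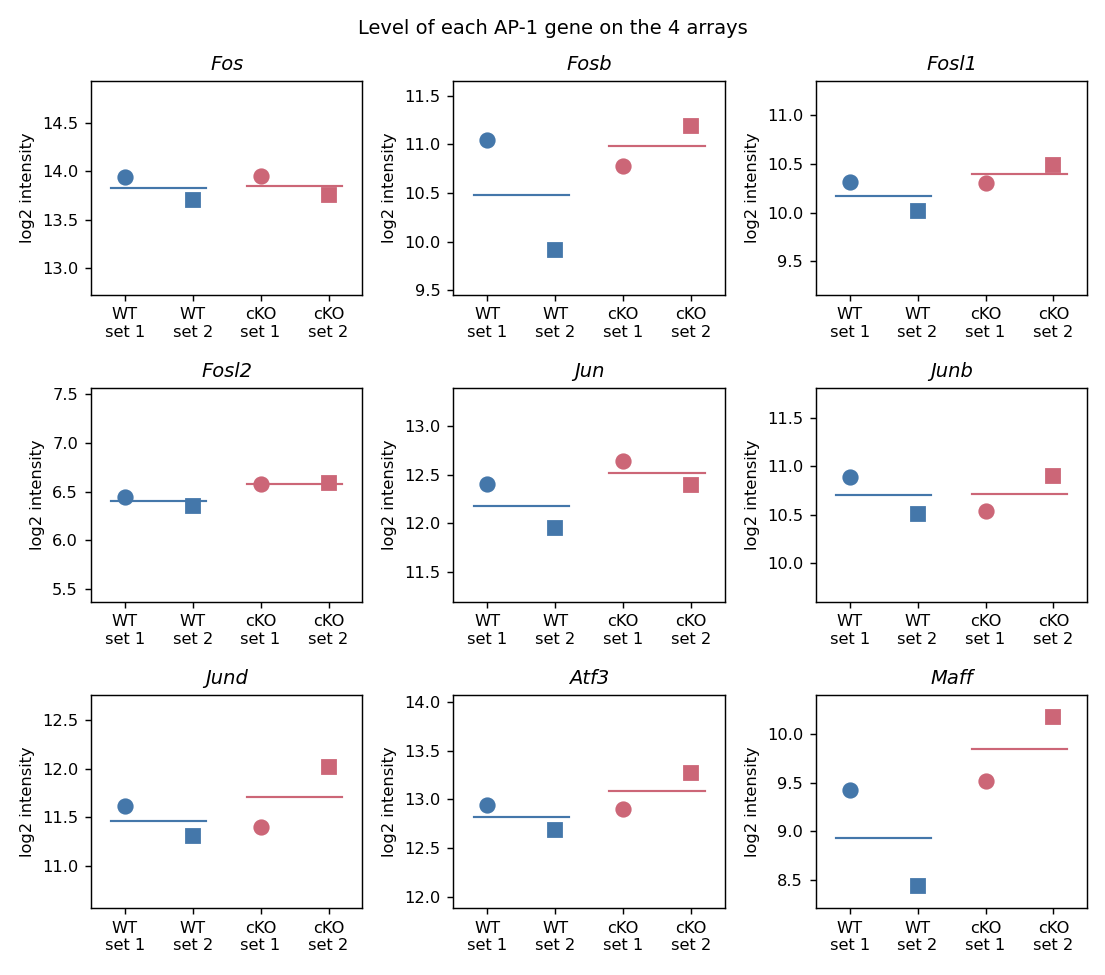
Log2 intensity (vertical axis, each panel spanning 2.2 units) of the 9 AP-1 genes on the 4 arrays, with blue for WT, red for cKO, circles for set 1, squares for set 2 and a line at each genotype's mean (n = 2). In each panel the WT set 2 square is the lowest point, by the widest margins for Maff (8.44) and Fosb (9.91).

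The comparison of cKO with WT asked whether these genes differ in the sorted cells when Tbx1 is targeted. The arrays of each genotype come from different sets, so the SDs, confidence intervals and p-values of this comparison include any difference between sets. All 9 members had a higher mean in cKO than in WT by their main probe sets, as 54.3% of genes tested did. The median difference was 0.24 against 0.03 for all genes. By their main probe sets, Fosl2 and Maff had both cKO arrays above both WT arrays, 2 of 9, which is near the 26.7% of all genes. limma called 7 genes in all, 2 higher in cKO (Cck and Tsc22d3, 0.0249% of those tested) and 5 lower (Fabp4, Aqp1, Selp, Plvap and Srgn, 0.0623%), and 83 with the set as a block, and no AP-1 gene was among them in either fit. At an unadjusted p under 0.05 limma gave 0 of the 9 members by their main probe sets, against 14.2% of all genes, while the second Jun probe set had an unadjusted p of 0.0416. Without the WT set 2 array the median difference was 0.09 and 6 of 9 members were higher in cKO. Without the WT set 1, cKO set 1 and cKO set 2 arrays the medians were 0.39, 0.32 and 0.14, with 9, 8 and 7 members higher. With an array left out, the genotypes are no longer balanced over the sets, so these values also mix genotype with set. Between the arrays outside WT set 2 and cKO set 1, a comparison added after the values were seen that mixes genotype with set, 7 of 9 members were higher on cKO set 2 than on WT set 1 (49.3% of all genes), with a median of 0.15.

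Among the Fos family, Fos, the founding member and partner of the Jun proteins, read 13.94 and 13.71 in WT and 13.95 and 13.75 in cKO (set 1 and set 2 in each case). Both set 2 arrays were lower than both set 1 arrays, and the genotypes overlapped. The genotype difference was 0.03 (95% confidence interval -0.41 to 0.46, limma adjusted p = 0.965), with means of 13.82 ± 0.17 in WT and 13.85 ± 0.14 in cKO (SD, n = 2). On the linear scale these arrays read 15730 and 13367 in WT and 15811 and 13795 in cKO.

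Fosb, a paralog of Fos that also gives the long-lived splice form ΔFosB, read 11.04 and 9.91 in WT and 10.78 and 11.19 in cKO. The WT set 1 value lay between both cKO values, so the groups overlapped. Its means were 10.48 ± 0.80 and 10.99 ± 0.29 (SD, n = 2), and the difference of 0.51 (95% confidence interval -0.43 to 1.45) did not pass limma's test (adjusted p = 0.595). Within set 1 Fosb was lower in cKO by value, at -0.26, and within set 2 it was 2.43-fold higher. The WT set 2 signal of Fosb was 45.6% of that in WT set 1, whereas the cKO set 2 signal was 133% of that in cKO set 1. Without the WT set 2 array its genotype difference was -0.06.

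Fosl1 encodes FRA1, which lacks the strong activation domain of Fos. Its main probe set read 10.32 and 10.02 in WT and 10.31 and 10.49 in cKO, so that the set 1 arrays were nearly equal and the set 2 arrays were the lowest and the highest. This gave a genotype difference of 0.23 (SE 0.18, limma adjusted p = 0.619), which ran from 0.080 to 0.38 as each array was left out, lowest without WT set 2. A dimmer probe set of the same gene read 6.32 and 6.14 in WT and 5.70 and 6.44 in cKO, and its mean difference had the opposite sign, at -0.16 (SE 0.28, limma adjusted p = 0.840 in the fit of single probe sets). Its lowest value lay on the cKO set 1 array, unlike that of the main probe set. With the mean of both probe sets the Fosl1 difference was 0.035.

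Fosl2, which encodes the related protein FRA2, read 6.45 and 6.35 in WT and 6.58 and 6.58 in cKO. Both cKO arrays were above both WT arrays, by a mean of 0.18 (95% confidence interval -0.20 to 0.56, limma adjusted p = 0.636). The WT arrays differed from each other by -0.09 between sets and the cKO arrays by 0.0044.

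Among the Jun family, Jun, which can dimerise with itself as well as with Fos proteins, read 12.41 and 11.95 in WT and 12.64 and 12.40 in cKO. The cKO set 2 and WT set 1 values nearly coincided, and the genotypes overlapped by a small margin. The difference was 0.34 (95% confidence interval -0.19 to 0.87, limma adjusted p = 0.525), and the means were 12.18 ± 0.32 and 12.52 ± 0.17 (SD, n = 2). The difference was 0.11 without the WT set 2 array. A second Jun probe set read 10.69 and 9.98 in WT and 11.14 and 10.97 in cKO, with no overlap. It differed by 0.72 (SE 0.27), which did not pass in the fit of single probe sets (limma adjusted p = 0.403). With the mean of both probe sets the Jun difference was 0.53.

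Junb, which encodes a weaker activator that can oppose Jun, read 10.89 and 10.51 in WT and 10.54 and 10.90 in cKO. The highest and lowest values of the genotypes nearly coincided, and the means were 10.70 ± 0.27 and 10.72 ± 0.26 (SD, n = 2). Its differences of -0.35 in set 1 and 0.39 in set 2 averaged 0.02 (95% confidence interval -0.51 to 0.55, limma adjusted p = 0.981).

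Jund, often expressed more steadily than its paralogs, read 11.62 and 11.31 in WT and 11.40 and 12.02 in cKO. The cKO set 2 array was the highest and the WT set 2 array the lowest. The mean difference was 0.24 (95% confidence interval -0.38 to 0.86, limma adjusted p = 0.708). Without the cKO set 2 array it was -0.07. It was -0.22 within set 1 and 0.70 within set 2, where the cKO signal was 1.63-fold that of WT.

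Atf3, a stress-induced ATF protein that pairs with Jun proteins and can act as a repressor, read 12.94 and 12.69 in WT and 12.90 and 13.27 in cKO. Its values within set 1 differed by -0.04 and those within set 2 by 0.59, just over 1.5-fold. The mean difference of 0.27 (95% confidence interval -0.22 to 0.77) did not pass limma's test (adjusted p = 0.590). With cKO set 2 left out the Atf3 difference was 0.086.

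Maff encodes a small Maf protein, which has a zipper but no activation domain of its own. It read 9.42 and 8.44 in WT and 9.52 and 10.17 in cKO. Both cKO arrays were above both WT arrays, by 0.09 within set 1 and by 1.73, or 3.33-fold, within set 2. The means were 8.93 ± 0.69 and 9.84 ± 0.46 (SD, n = 2). This was the largest genotype difference among the 9 members, at 0.91 (95% confidence interval -0.01 to 1.84, limma adjusted p = 0.357). Without the WT set 2 array it was 0.42.

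**Figure D2:**
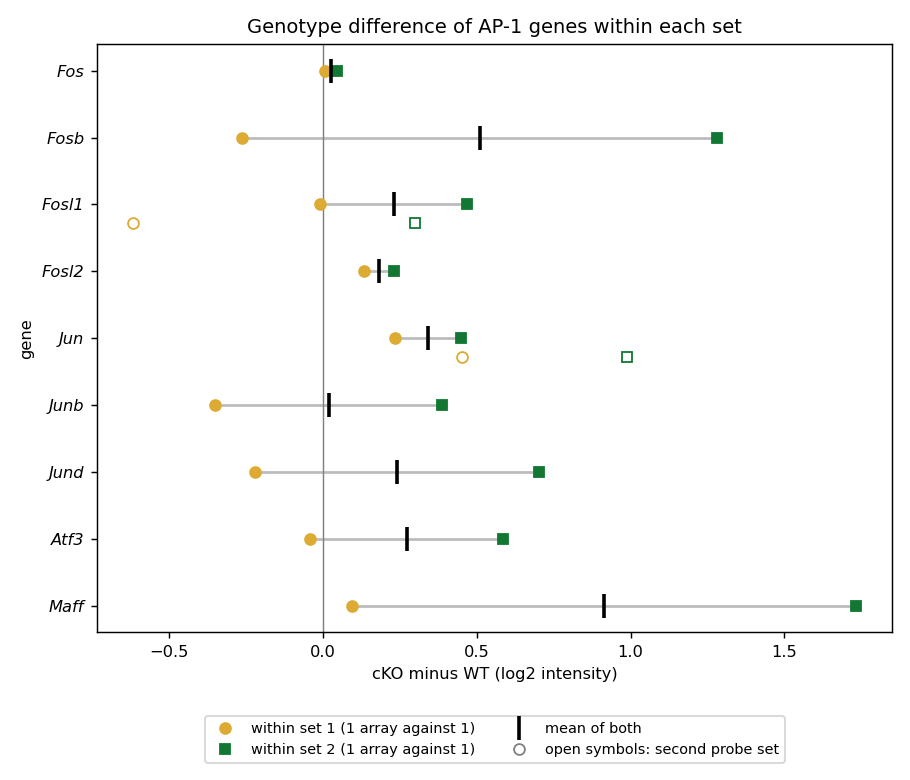
Difference in log2 intensity between cKO and WT (horizontal axis) for the 9 AP-1 genes, within set 1 (circles), within set 2 (squares) and as the mean of both (bars), with open symbols for the second probe sets of Fosl1 and Jun. All 9 filled squares lie to the right of 0, from 0.05 for Fos to 1.73 for Maff, whereas the filled circles run from -0.35 for Junb to 0.23 for Jun.

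By main probe sets, the median over the members within set 1 was -0.01, and 4 of 9 were higher in cKO (52.4% of all genes). None was at least 1.5-fold higher (6.34% of all genes) or lower (4.4%) by these probe sets. The second Fosl1 probe set was lower in cKO within set 1, at 0.65-fold of WT. Within set 2 all 9 were higher in cKO by main probe sets (55.4% of all genes), with a median of 0.47 against 0.05 for all genes. Fosb, Jund, Atf3 and Maff were at least 1.5-fold higher in cKO, against 9.41% of all genes. The second Jun probe set was also higher in cKO within set 2, at 1.99-fold of WT. The members with opposite signs in the sets were Fosb, Fosl1, Junb, Jund and Atf3, 5 of 9 against 36.0% of all genes. Each of these differences rests on 1 array against 1, and with 4 arrays the difference between sets has no residual degrees of freedom and was not tested.

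Between sets, the question was whether AP-1 genes differ between samples labelled activated and those labelled quiescent. limma called 0 of 8031 genes (0% in either direction), with 230 at an unadjusted p under 0.05 (2.86%), 0 AP-1 genes among them, and 1 gene, Ehd3, with the genotype as a block. The members' adjusted p lay at 0.999 or above. Counts and medians of members between sets are by main probe sets. By their means 7 of 9 members were lower in set 2 (59.8% of all genes), with a median of -0.06 against -0.05 for all genes. In WT all 9 members had lower values in set 2, against 59.9% of all genes, with a median of -0.31, and Fosb and Maff were at least 1.5-fold lower (5.75% of all genes). In cKO 7 of 9 had higher values in set 2 (43.9% of all genes), with a median of 0.36, and Jund and Maff were at least 1.5-fold higher (1.98% of all genes). The direction was opposite in WT and cKO for these 7, against 44.2% of all genes. The second Jun probe set had a WT set 2 signal of 60.9% of that in WT set 1. The second Fosl1 probe set had a cKO set 2 signal of 167% of that in cKO set 1. Both differences were also at least 1.5-fold. Fos and Jun were lower in set 2 in both genotypes, Fos by values of -0.23 in WT and -0.20 in cKO and Jun by -0.46 and -0.24. Both set 2 arrays lay below both set 1 arrays for these 2 of 9 members, which is near the 19.5% of all genes. For Jun the margin was small, with 12.40 on cKO set 2 and 12.41 on WT set 1. On the second Jun probe set the sets overlapped, with 10.97 on cKO set 2 above 10.69 on WT set 1. With the WT set 2 array left out, the median of the members between sets turned from -0.06 to 0.19. These values come from the same 4 arrays as the genotype differences, so a low WT set 2 value enters both.

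**Figure D3:**
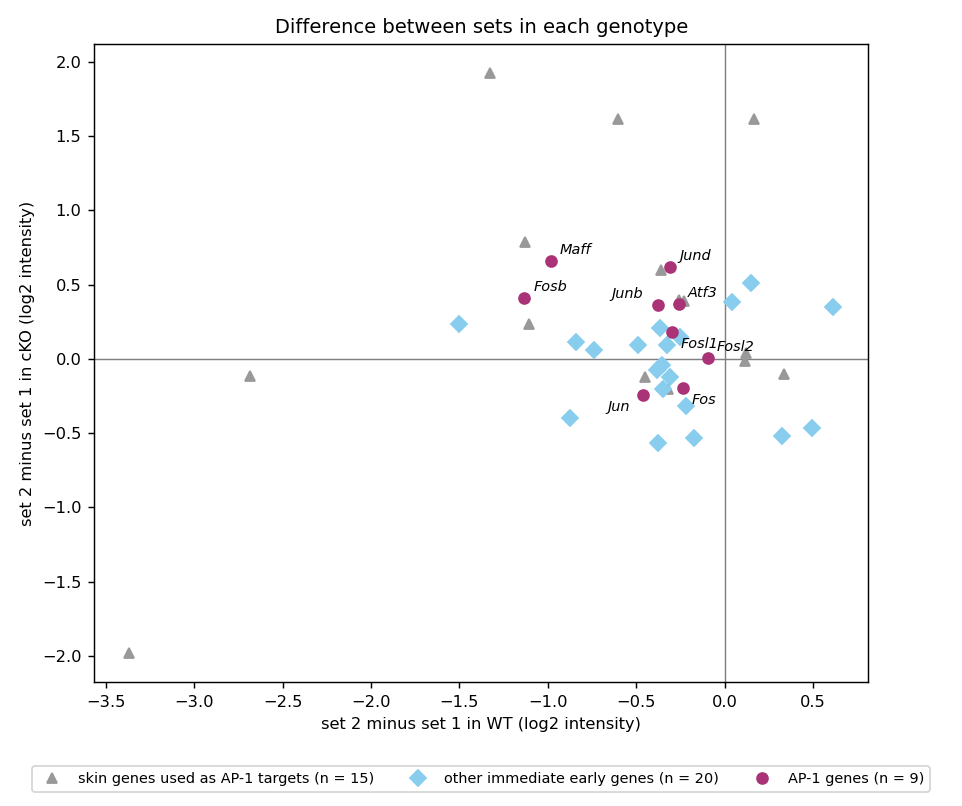
Set 2 minus set 1 in log2 intensity, in WT (horizontal axis) and in cKO (vertical axis), for 9 AP-1 genes (circles), 20 other immediate early genes (diamonds) and 15 skin genes known as AP-1 targets (triangles). All AP-1 genes lie left of 0, and 7 of 9 lie above it, with Fos and Jun below.

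For likeness of pattern, each gene's 4 values were centred on their mean, and the root mean square distance to the AP-1 gene was taken over the 4 arrays. Nearest to Maff were the cytokine gene Il33 at 0.07, the interleukin 6 receptor gene Il6ra at 0.08 and Cdk5r1 at 0.08. Il33 read 8.38 and 7.29 in WT and 8.44 and 8.95 in cKO. Nearest to Fosb were the epidermal fatty acid carrier gene Fabp5 at 0.03, the serpin gene Serpinb2 at 0.05 and the tubulin gene Tuba8 at 0.06. Tuba8 read 6.60 and 5.54 in WT and 6.45 and 6.92 in cKO, with the same order of arrays as Fosb. Nearest to Jund were Cd99 at 0.03, Ostf1 at 0.03 and B4galnt1 at 0.05. With 4 arrays many genes can lie this close, and these likenesses are descriptions.

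Among partners and upstream kinases of AP-1 no gene was called. Of 31 listed, 27 were on the array and 23 above the dim limit, and none passed limma's test in either comparison. Their median genotype difference was 0.10, and 16 of 23 were higher in cKO by value (54.3% of all genes). Jdp2, a zipper protein that represses AP-1, differed by 0.87 in set 1 and 0.46 in set 2 (limma adjusted p = 0.290). Crem, of the cyclic AMP response family, differed by -0.76 and -0.58 (0.482), the stress kinase gene Map3k5 by -0.75 and -0.53 (0.313), and Mapk8, which encodes the Jun kinase JNK1, by -0.24 and -0.52 (0.555). Mafk, a small Maf gene like Maff, differed by 0.31 and 0.41 (0.412), and Mapk14, which encodes the p38α kinase, by 0.14 and 0.20 (0.737). Between sets Crem had the largest difference of one sign in both genotypes, 0.76 in WT and 0.93 in cKO (limma adjusted p = 0.999). Elk3, a ternary complex factor gene, differed by -1.0 and -0.52.

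Among skin genes known as AP-1 targets, the 12 that lay above the dim limit on all arrays ran in genotype difference from -0.45 for Ccnd1 to 1.88 for Sprr1b. Of 24 listed, 23 were on the array and 15 above the dim limit, with 9 higher and 6 lower in cKO by value. That is near the 54.3% of all genes that were higher. Their median was 0.16, and none passed limma's test in either comparison. At an unadjusted p under 0.05 limma gave 6 of the 15 for genotype, both directions together, against 14.2% of all genes. Within set 2, on 1 array against 1, 10 of 15 were higher in cKO (55.4% of all genes) and 7 at least 1.5-fold higher (9.41%). S100a8 and S100a9, alarmin genes, differed by 1.06 and 0.66 in set 1 and by 3.28 and 3.91 in set 2 (limma adjusted p = 0.222 and 0.274), but both WT arrays of S100a8 and the WT set 2 array of S100a9 lay below the dim limit. Dusp1, which encodes a phosphatase of MAP kinases, differed by 0.70 and 1.03 (0.219). Il6, a cytokine gene, ran the other way, at 9.21 and 9.38 in WT and 4.77 and 6.39 in cKO (limma adjusted p = 0.0857), with the cKO set 1 array below the dim limit. Of the 15, 8 had their lowest value on the WT set 2 array (39.7% of all genes). Lor, the cornified envelope gene loricrin, is also among the suprabasal markers, and it was lower in set 2 in both genotypes, by values of -3.37 in WT and -1.98 in cKO. In this it differed from the other suprabasal markers tested. All 5 were lower in set 2 in WT (59.9% of all genes), but 4 of 5 were higher in set 2 in cKO (43.9%).

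Immediate early genes outside AP-1 were also higher in cKO by value. All 20 were above the dim limit, 19 had a higher mean in cKO (54.3% of all genes) and 1, Zfp36, a lower one. Their median difference was 0.32, with 0.23 in set 1 and 0.43 in set 2. None passed limma's test in either comparison. Myc differed by 0.80 and 1.1 in the sets (limma adjusted p = 0.172), the matricellular gene Ccn1 by 0.39 and 0.86 (0.440) and the zinc finger gene Egr2 by 0.33 and 0.48 (0.411). Of these 20 genes, 14 had their lowest value on the WT set 2 array (39.7% of all genes). In cKO their median difference between sets was 0.01, where that of the 9 AP-1 genes was 0.36, a contrast between lists that was not tested.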

How the data were processed

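Sorted hair follicle stem cells gave RNA for 4 Affymetrix arrays, 2 per genotype, and labelled cRNA was made from 2 µg of total RNA, per the labels' protocols. The authors deposited intensity values for 22690 probe sets, processed with RMA per the submitters' processing notes, with version and settings not given in the sources used here. The range of 5.29 to 25561, with array medians of 82.0 to 83.3, shows a linear scale, and log2 was taken for all tests. There is no detection call, and values near the lowest intensities compress differences.

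Of the probe sets, 20380 had 1 gene symbol in the platform annotation, 691 had several and 64 were controls. Gene identifiers of 20351 were found in RefSeq (GRCm38.p6), and 0 symbols changed. The brightest probe set by mean stood for each gene. A dim limit at percentile 40 of the probe set means (log2 5.40) and the removal of Xist and Y-linked genes left 8031 genes. Both comparisons (cKO minus WT, set 2 minus set 1) were fitted with limma 3.58.1 in R 4.3.3 on all 4 arrays with no covariate, with Benjamini-Hochberg adjustment over all genes and a threshold of 0.05, after a test of the script on simulated data. The labels do not say whether the arrays within a genotype hold separate animals, so the p-values reflect the spread among these arrays alone, which may be partly technical. The 2 arrays of a genotype also differ in set label. In the main fits the SDs, intervals and p-values for genotype therefore include any difference between sets. The p-values between sets likewise include any difference between genotypes. The smallest p an exact permutation test allows here, with 2 arrays a group, is 0.333.

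Same-numbered arrays share a state in the labels, so the set was read as pairing them. Their deviations from group means correlated across genes with r = 0.192. The members and gene lists were chosen with earlier results of these data known. All AP-1 genes are named. From the other lists, genes were named that had the largest smaller within-pair difference of one sign, up to 3 per direction, and not all of them are given. Likeness was taken for the 3 members with the largest range. Alternatives were no filter, a filter at percentile 60, single probe sets, the mean of probe sets, a second quantile normalisation, centring on medians, log2(value + 16), robust fitting with a variance trend, a threshold of 0.10, the blocks and each array left out.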

Additional observations from a re-analysis of the deposited data

Results flagged for a closer look

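Several AP-1 genes differed in opposite directions in the groups compared, on 1 array against 1, and these differences between groups were not tested. The genotype difference (cKO minus WT) was below 0 in set 1 and above 0 in set 2 for 5 genes. The set 2 value exceeded the set 1 value by 1.54 on the log2 scale for Fosb, 0.48 for Fosl1, 0.74 for Junb, 0.92 for Jund and 0.63 for Atf3. The difference between sets was likewise below 0 in WT and above 0 in cKO for 7 genes. These were the same 5 genes with the same values, together with Maff at 1.64 and Fosl2 at 0.10. All of these values include the WT set 2 array, on which the main probe set of every AP-1 gene had its lowest value. The part of that array was not tested.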

How the results depend on the processing

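No AP-1 gene passed limma's test under any alternative run, with adjusted p from 0.120 to 1.00 for cKO minus WT and from 0.319 to 1.00 for set 2 minus set 1. Of 250 values of single members under the alternatives, 123 repeat the reported difference, nearly all under settings that leave it as it is, and say nothing of its stability. Of the 72 values with an array left out, 15 changed sign, as did 1 of the 55 others that moved. With an array left out, genotype and set are unbalanced, so a difference in either includes part of the other. Without the WT set 2 array, cKO minus WT was -0.091 for Fos, -0.058 for Fosb and -0.17 for Junb, and set 2 minus set 1 was 0.28 for Fosb, 0.18 for Fosl1, 0.071 for Fosl2, 0.19 for Junb and 0.70 for Maff. Over the arrays left out in turn, cKO minus WT ran from -0.091 to 0.14 for Fos, -0.058 to 1.07 for Fosb, -0.17 to 0.21 for Junb and -0.068 to 0.55 for Jund. With no change of sign it ran from 0.080 to 0.38 for Fosl1, 0.13 to 0.23 for Fosl2, 0.11 to 0.57 for Jun, 0.086 to 0.46 for Atf3 and 0.42 to 1.41 for Maff. Set 2 minus set 1 ran from -1.0 to 0.28 for Fosb, -0.29 to 0.18 for Fosl1, -0.16 to 0.071 for Fosl2, -0.20 to 0.19 for Junb, -0.20 to 0.51 for Jund, -0.24 to 0.35 for Atf3 and -1.03 to 0.70 for Maff. Fos ran from -0.24 to -0.19 and Jun from -0.58 to -0.13. With probe sets averaged per gene, Fosl1 differed by 0.11 between sets and by 0.035 between genotypes, and Jun by 0.53 between genotypes. The cause of these changes was not tested, beyond the fewer samples. The members' median ran from 0.09 to 0.39 for cKO minus WT and from -0.24 to 0.19 between sets, and the count of members higher in cKO from 6 to 9, with 7 between cKO set 2 and WT set 1 alone, a setting added after the data were seen.

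The number of genes called for cKO minus WT was 7, and 0 with the filter at percentile 60 (816 at an unadjusted p under 0.05 by limma), 28 with a variance trend, 39 at a threshold of 0.10, 83 with the set as a replicate block, and 2 to 16 with an array left out (2 without WT set 2, 16 without cKO set 2). Between sets it was 0 in all alternatives except the genotype block, with 1, including 0 with each array left out. The replicate block changed no call of an AP-1 gene. Fosl2 lay below the percentile 60 filter and has no value there. With 2 arrays a group, precision is limited throughout.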
